A study of Mus musculus with 3 samples.

Results

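Imprinted genes are expressed from only 1 of the 2 parental copies. The 39 imprinted genes described here were chosen by symbol from a list of known loci, were sorted by locus and by the parental allele that is usually expressed, and are 39 of the 24062 genes counted. By background knowledge 14 of them are expressed from the maternal allele, 22 from the paternal allele and 3 (*Ddc*, *Ube3a* and *Gnas*) in a way that depends on tissue or transcript. Of the 39, 36 had at least 10 counts in both libraries together, as had 13979 of all genes, and only these were given a fold change.

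RNA-Seq was performed on rostrums, which are the front of the head, of mouse embryos at E9 (embryonic day 9, with 18 to 22 somites). The mutant embryos were homozygous for *tuft*, a spontaneous point mutation that truncates the dioxygenase TET1, and presented curled neural folds. The wild-type embryos were of the 3H1 Balb background strain, which both groups share. RNA of 3 embryos was pooled for each genotype, and 1 column of counts was analyzed for each, although *tuft* has 2 sample records and wild type has 1. No value therefore has a replicate error, no test between genotypes was possible, and each comparison is between 2 libraries. Intervals in parentheses after a fold change are 95% exact (Clopper-Pearson) intervals and cover counting error only.

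Most imprinted genes lie in clusters, in which a region that is methylated on 1 parental chromosome controls several genes. In many clusters, a long non-coding RNA is made from one chromosome and protein-coding genes from the other. TET enzymes oxidize 5-methylcytosine and take part in the erasure of imprints in germ cells, and many imprinted genes regulate the growth of the fetus and placenta. The counts did not separate the alleles, so that a share of maternally expressed genes is a share of genes and not of chromosomes.

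The libraries held 14251942 counts on genes in wild type and 6433067 in *tuft*, 2.22 times fewer. A count of 0 was set to 3 counts, which correspond to 0.210 and 0.466 counts per 1000000 counts on genes (CPM). For genes at 0 in *tuft*, "at least" or "at most" before a fold change refers to that setting. The upper end of their exact interval lies nearer to 1. Levels are given as CPM. Fold changes are *tuft* over wild type after trimmed mean of M-values (TMM) normalization, whose factor in *tuft* was 0.761 of that in wild type, so that each fold change exceeds the ratio of the CPM values. *Tet1* itself had 435 counts (30.5 CPM) in wild type and 32 (4.97 CPM) in *tuft*, a fold change of 0.214 (0.145 to 0.307). Markers of the dissected tissue were found in both libraries: of 11 genes of head neuroepithelium, 10 had counts in both, and of 10 genes of head mesenchyme and neural crest, 9 had.

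A gene was called higher or lower where its fold change was at least 2-fold and the interval did not reach 1. Of the 36 imprinted genes, 5 were higher in *tuft* (*H19*, *Igf2*, *Rtl1*, *Mkrn3* and *Zrsr1*), 14 were lower and 17 were neither. The share that was higher was 13.9%, beside 21.2% of all genes. The share that was lower was 38.9%, beside 37.3% of all genes. The share of lower genes was thus near that of all genes, and the share of higher genes was below it. At 4-fold, 3 were higher and 9 lower, beside 9.20% and 22.1% of all genes. At 1.5-fold, 10 were higher and 17 lower, beside 28.2% and 45.6%. Where the minimum was 100 counts over both libraries together, 5 imprinted genes were higher and 9 lower, beside 23.8% and 32.0% of such genes.

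**Figure D1:**
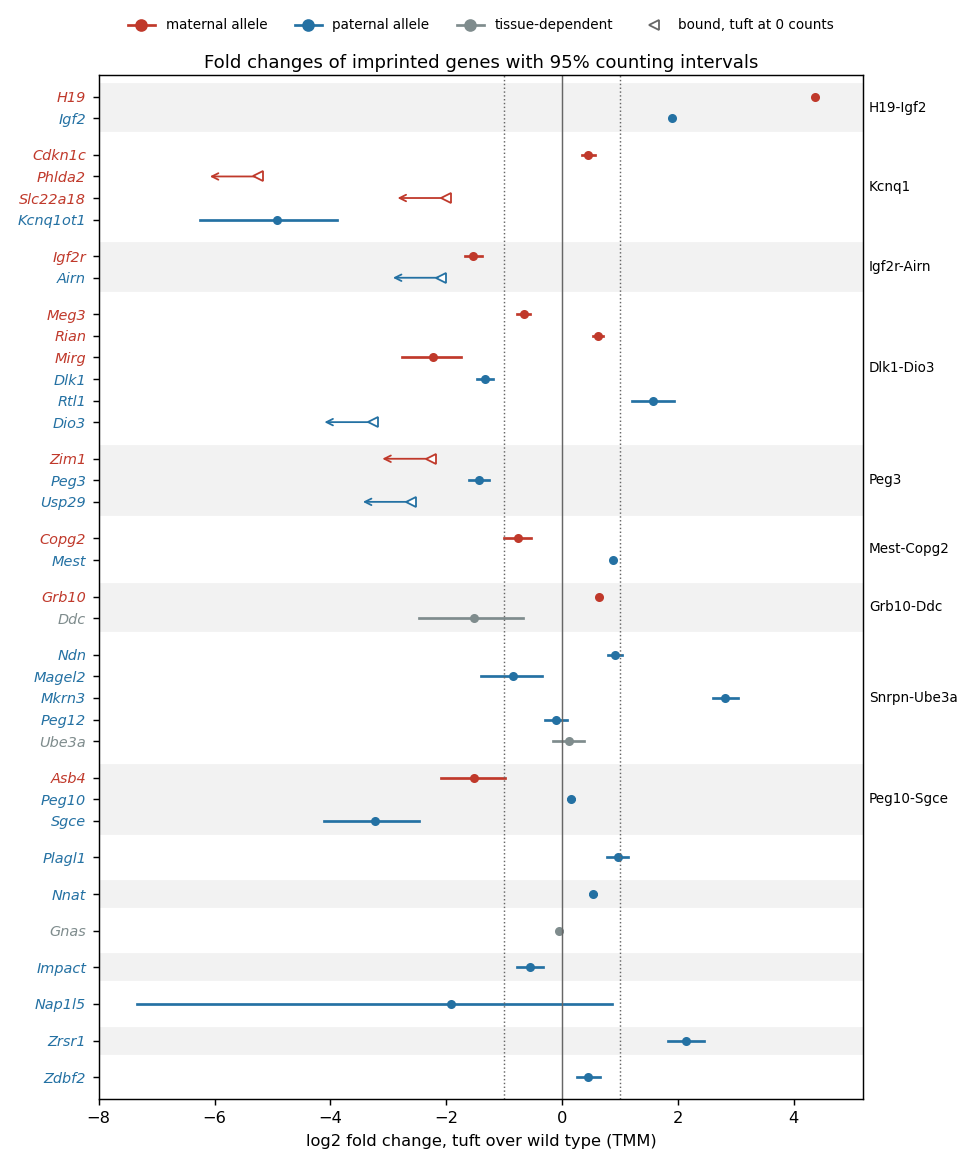
Log2 fold change of the 36 imprinted genes with at least 10 counts, *tuft* over wild type after TMM normalization, by locus. Bars are 95% counting intervals, open triangles with arrows are bounds for the 6 genes at 0 counts in *tuft*, and dotted lines mark 2-fold. *H19*, at a log2 value of 4.36, lies farthest to the right, and the *Kcnq1* locus holds the lowest values.

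The first locus was *H19*-*Igf2*, on chromosome 7. *H19* (chr7:142575530-142578146, GRCm38), a maternally expressed long non-coding RNA that is spliced and polyadenylated, had 26621 counts (1868 CPM) in wild type and 188168 (29250 CPM) in *tuft*. Its fold change was 20.6 (20.3 to 20.8). It took 0.187% of the gene counts in wild type (95% interval 0.185% to 0.189%) and 2.93% in *tuft* (2.91% to 2.94%). *H19* was thus the gene with the most counts of all in *tuft*, whereas it held rank 20 in wild type. Of 3461 genes whose count in wild type was at least 1000, 9 including *H19* had a fold change that high.

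*Igf2* (chr7:142650768-142666816), the paternally expressed growth factor of the fetus, had 11512 counts (808 CPM) in wild type and 14781 (2298 CPM) in *tuft*. The fold change was 3.74 (3.65 to 3.83), and 2 of 73 genes of like level in wild type (log2 counts within 0.32) had one as high. Both genes of the locus were therefore higher in *tuft*, *H19* by more than *Igf2*. *H19* made up 69.8% of the counts of the pair in wild type and 92.7% in *tuft*, with an odds ratio of 5.51 (5.36 to 5.66), a value that does not depend on the normalization.

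Each of these genes hosts a microRNA, shown here because both genes of the locus were higher. *Mir675* lies in an exon of *H19* and *Mir483* within *Igf2*. The mature sequences, from RefSeq (GRCm38.p6), are printed 5′ to 3′ with the seed, bases 2 to 8, in capitals.
miR-675-5p: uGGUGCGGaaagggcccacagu
miR-675-3p: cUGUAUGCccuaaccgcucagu
miR-483-5p: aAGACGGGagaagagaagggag
miR-483-3p: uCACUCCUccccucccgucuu
These 4 sequences had 4 different seeds. Poly-A selection does not capture mature microRNAs, so the counts of the hairpins are not their levels. *Mir675* had 0 counts in both libraries, and reads on it also lie on an exon of *H19*, whereas *Mir483* had 1 count in wild type and 115 in *tuft*. The 15 hairpins within the annotated span of *Rtl1*, which was also higher, had 22 counts in wild type and 0 in *tuft*.

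The neighboring *Kcnq1* cluster differed from *H19*-*Igf2*: none of its 4 genes with a fold change was higher and 3 were lower. *Kcnq1ot1* (chr7:143213111-143296547) is a paternally expressed long non-coding RNA that starts inside an intron of *Kcnq1* and silences the cluster in cis. It had 621 counts (43.6 CPM) in wild type and 7 (1.09 CPM) in *tuft*, a fold change of 0.033 (0.013 to 0.068). *Phlda2* (chr7:143501545-143503145), which limits placental growth, had 331 counts (23.2 CPM) in wild type and 0 in *tuft*, and was at least 37.9-fold lower. Its exact interval reached up to a fold change of 0.0326. Of the 30 imprinted genes whose count in wild type was at least 100, it was the one at 0 in *tuft*. *Slc22a18*, a membrane transporter, had 35 counts and 0, and was at least 4.01-fold lower, at a level where 55.3% of genes were at 0 in *tuft*.

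*Cdkn1c* (chr7:143458339-143461059), the maternally expressed inhibitor of cyclin-dependent kinases, did not follow the rest of the cluster. Its level was 148 CPM (2116 counts) in wild type and 155 CPM (995 counts) in *tuft*, and its fold change was 1.37 (1.27 to 1.48). The potassium channel gene *Kcnq1*, with 7 counts in wild type and 0 in *tuft*, and *Ascl2*, which encodes a trophoblast transcription factor, with 2 and 0, were under the minimum. The 5 maternally expressed genes together held 80.0% of the counts of the cluster in wild type and 99.3% in *tuft*, with an odds ratio of 35.4 (17.0 to 88.8). In *tuft*, *Cdkn1c* held all of the maternal counts, and *Kcnq1ot1* was the single paternally expressed gene.

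*Igf2r* and *Airn*, on chromosome 17, were both lower. *Igf2r* (chr17:12682406-12769706) encodes the receptor that carries IGF2 to the lysosome. It had 3719 counts (261 CPM) in wild type and 442 (68.7 CPM) in *tuft*, a fold change of 0.346 (0.313 to 0.382). *Airn*, the antisense RNA that silences *Igf2r* on the paternal chromosome, had 37 counts and 0, and was at least 4.24-fold lower. Of genes at the level of *Airn*, 54.9% were at 0 in *tuft*. The ligand *Igf2* was thus higher and its clearance receptor *Igf2r* lower in the same library.

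In the *Dlk1*-*Dio3* cluster on chromosome 12, genes of the same parental allele did not move together. Of the 3 maternally expressed RNAs, *Meg3* (chr12:109540996-109571729), a long non-coding RNA, had 3520 counts (247 CPM) in wild type and 765 (119 CPM) in *tuft*, a fold change of 0.633 (0.584 to 0.685). *Rian*, host of small nucleolar RNAs, had 3141 counts (220 CPM) and 1661 (258 CPM), a fold change of 1.54 (1.45 to 1.63). *Mirg*, host of a large group of microRNAs, had 479 counts (33.6 CPM) and 35 (5.44 CPM), a fold change of 0.213 (0.146 to 0.300). Only *Mirg* of these 3 passed 2-fold, and *Meg3* and *Rian* lay on opposite sides of 1.

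Of the paternally expressed genes of that cluster, *Dlk1* (chr12:109452485-109463336), a transmembrane protein related to Notch ligands, had 3690 counts (259 CPM) in wild type and 505 (78.5 CPM) in *tuft*, a fold change of 0.399 (0.362 to 0.437). *Dio3*, the deiodinase that inactivates thyroid hormone, had 84 counts and 0, and was at least 9.62-fold lower, at a level where 33.25% of genes were at 0 in *tuft*. *Rtl1*, a gene derived from a retrotransposon and needed in the placenta, had 130 counts (9.12 CPM) and 133 (20.7 CPM), and was 2.98-fold higher (2.32 to 3.82). *Rtl1* is overlapped on the other strand by exons of 6 microRNA genes and in its annotated span by *Meg3* and *Rian*, and its reads cannot be told apart from theirs without strand, which the sources used here do not give. Of 938 genes of like level, 156 had a fold change as high as that of *Rtl1*. The maternal share of the cluster was 64.7% in wild type and 79.4% in *tuft*, with an odds ratio of 2.11 (1.92 to 2.32).

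All 3 genes of the *Peg3* cluster, on proximal chromosome 7, were lower. *Peg3* (chr7:6703892-6730462), a paternally expressed zinc finger protein, had 2551 counts (179 CPM) in wild type and 325 (50.5 CPM) in *tuft*, a fold change of 0.371 (0.330 to 0.417). Its neighbors had low levels: *Usp29*, a ubiquitin-specific peptidase, had 53 counts and 0 (at least 6.07-fold lower), and *Zim1*, a maternally expressed zinc finger protein, had 42 and 0 (at least 4.81-fold lower). At these levels, 47.0% and 52.4% of genes were at 0 in *tuft*.

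*Mest* (chr6:30733506-30748466), a paternally expressed gene of mesoderm, was the most abundant imprinted gene in wild type by counts. It had 32858 counts (2306 CPM) in wild type and 20856 (3242 CPM) in *tuft*, a fold change of 1.85 (1.82 to 1.88), which did not reach 2-fold. *Copg2*, a subunit of the coat of COPI vesicles whose exons overlap those of *Mest* on the other strand, had 928 counts (65.1 CPM) and 188 (29.2 CPM), a fold change of 0.590 (0.502 to 0.691). *Copg2* held 2.75% of the counts of the pair in wild type and 0.893% in *tuft*.

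In the *Peg10*-*Sgce* cluster on chromosome 6, neighbors that share a promoter region differed. *Peg10*, another gene derived from a retrotransposon, had 8927 counts (626 CPM) in wild type and 3412 (530 CPM) in *tuft*, a fold change of 1.11 (1.07 to 1.16). *Sgce*, which encodes epsilon-sarcoglycan and is transcribed from the opposite strand, had 382 counts (26.8 CPM) and 14 (2.18 CPM), a fold change of 0.107 (0.058 to 0.181). Of 1465 genes of like level, 230 had a fold change as low as that of *Sgce*. The maternally expressed *Asb4*, an ankyrin repeat protein, had 267 counts (18.7 CPM) and 32 (4.97 CPM), a fold change of 0.349 (0.234 to 0.505). A fold change as low was found in 408 of 1280 genes of like level.

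The genes of the *Snrpn*-*Ube3a* region, which is lost or silenced in Prader-Willi and Angelman syndromes, spanned a wide range. *Mkrn3* (chr7:62417593-62420153), a RING finger ubiquitin ligase, had 267 counts (18.7 CPM) in wild type and 647 (101 CPM) in *tuft*, and was 7.06-fold higher (6.11 to 8.17). Of 1280 genes of like level, 32 had a fold change as high. *Ndn*, the MAGE-family protein necdin, had 1483 counts (104 CPM) and 959 (149 CPM), a fold change of 1.88 (1.73 to 2.04). *Magel2*, of the same protein family, had 200 counts and 38, a fold change of 0.553 (0.380 to 0.786). *Mkrn3*, *Ndn* and *Magel2* are paternally expressed neighbors, and *Mkrn3* alone of them passed 2-fold. The fold changes of *Peg12*, a FRAT-family protein, and *Ube3a*, an E3 ubiquitin ligase, were 0.931 (0.816 to 1.06) and 1.08 (0.898 to 1.30), both with intervals that held 1. *Snrpn* had 1 count in wild type and 0 in *tuft*, and *Snurf*, which lies within its annotated span, had 0 in both.

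*Grb10*, the maternally expressed adaptor that dampens insulin and IGF receptor signaling, had 22223 counts (1559 CPM) in wild type and 11899 (1850 CPM) in *tuft*, a fold change of 1.56 (1.52 to 1.59). Its neighbor *Ddc*, the decarboxylase that makes dopamine and serotonin, had 108 counts (7.58 CPM) and 13 (2.02 CPM), a fold change of 0.351 (0.181 to 0.625). A fold change as low was found in 407 of 865 genes of like level.

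Of the loci with a single member, only *Zrsr1* was called. *Zrsr1* (chr11:22972005-22976496), a splicing factor of the U2AF family, had 144 counts (10.1 CPM) in wild type and 218 (33.9 CPM) in *tuft*, and was 4.41-fold higher (3.56 to 5.48). It overlaps exons of *Commd1* on the other strand, so that here too strand matters. The zinc finger transcription factor *Plagl1* came next, with 608 counts (42.7 CPM) and 406 (63.1 CPM) and a fold change of 1.94 (1.71 to 2.21). Neuronatin (*Nnat*) had a fold change of 1.45, *Zdbf2* of 1.37, *Gnas*, the alpha subunit of the stimulatory G protein, of 0.968 and *Impact*, a regulator of translation, of 0.684. *Nap1l5*, with 11 counts and 1, had a fold change of 0.265 with an interval of 0.006 to 1.82, so that no difference was detectable at this depth.

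**Figure D2:**
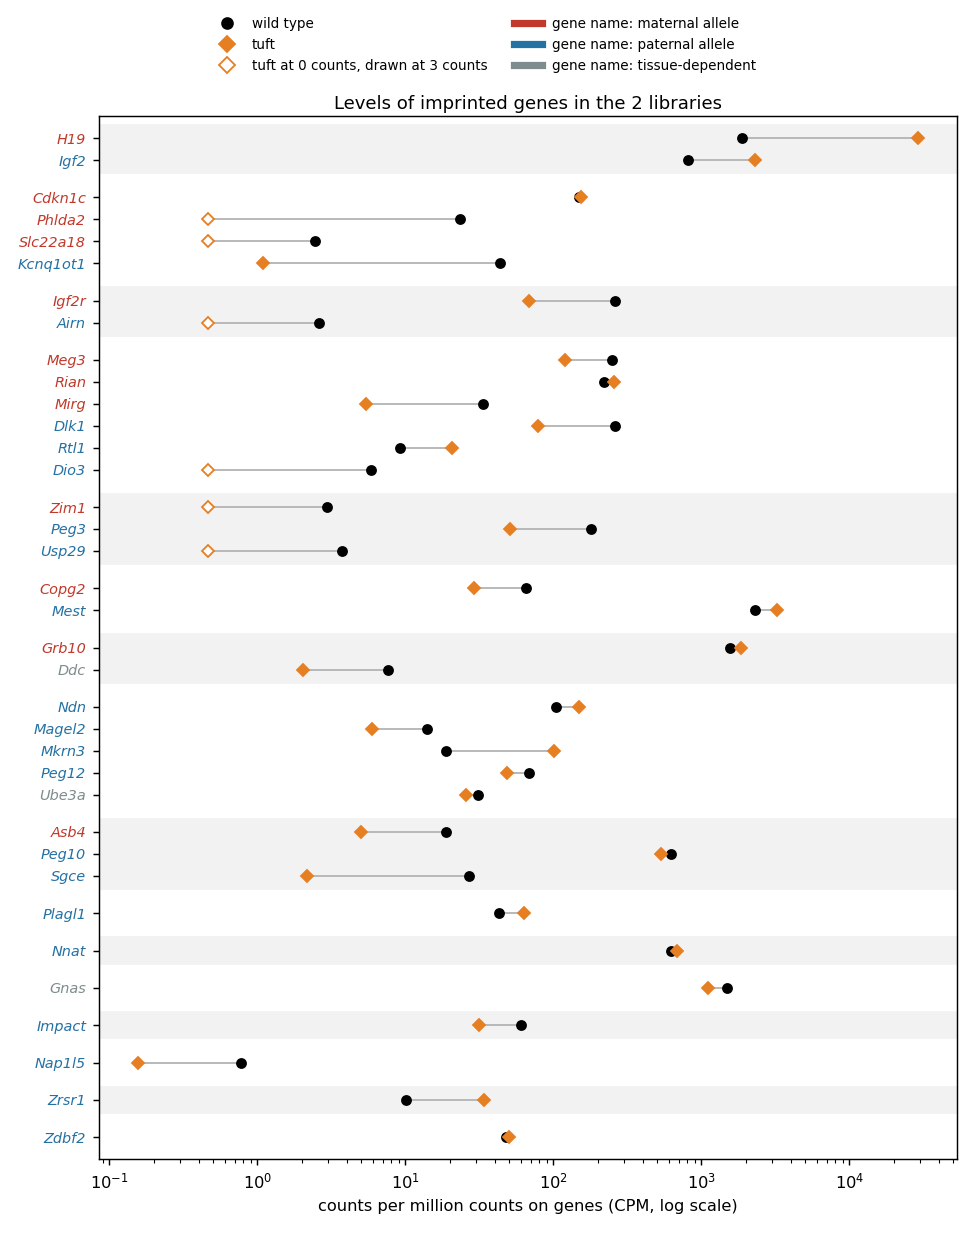
Level of the 36 imprinted genes in wild type (circles) and *tuft* (diamonds), in CPM before TMM normalization on a log axis, by locus. Open diamonds mark the 6 genes at 0 counts in *tuft*, drawn at 0.466 CPM (3 counts), and *H19* spans 1868 to 29250 CPM.

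Compared per kilobase of exon, which 38 of the genes allow, *H19* had the highest level among the imprinted genes in both libraries, with 787 CPM per kilobase in wild type and 12331 in *tuft*. *Mest* followed with 586 and 823. *Nnat* was next in wild type, with 342 CPM per kilobase, and *Igf2* in *tuft*, with 418. Together, the 39 genes held 1.12% of the gene counts in wild type and 4.03% in *tuft*. Without *H19*, they held 0.938% and 1.10%, so that most of the difference in that sum was *H19*.

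By expressed allele, 1 of 12 maternally expressed genes was higher (8.33%) and 6 were lower (50%), with a median log2 fold change of -1.14 (zeros at their bound). Of 21 paternally expressed genes, 4 were higher (19.05%) and 7 lower (33.3%), with a median of -0.10. Over all 13979 genes, 21.2% were higher and 37.3% lower, and the median was -0.46. The paternal shares were thus near those of all genes. Among genes with counts in both libraries, the medians were -0.66 over 9 maternally expressed genes, 0.30 over 18 paternally expressed genes and -0.06 over 11335 genes. *H19*, the highest of all, is maternally expressed and so lies on the side with the lower median.

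Within loci, the share of counts held by maternally expressed genes rose in 4 and fell in 3 of the 7 loci that had genes of both kinds. It rose at *H19*-*Igf2*, *Kcnq1*, *Igf2r*-*Airn* and *Dlk1*-*Dio3*. At *Igf2r*-*Airn* it lay between 98.6% and 99.3% (95% interval) in wild type and was 100% in *tuft* (99.2% to 100%). The 3 loci in which it fell were led by paternally expressed genes: the share was 1.59% and 0% at *Peg3* (in *tuft*, 0% to 1.13%), and 2.79% and 0.925% at *Peg10*-*Sgce*, beside the *Mest*-*Copg2* values above. In each of the 7 loci, the class with the larger share in wild type thus had a still larger share in *tuft*. At *Igf2r*-*Airn*, where the intervals overlapped, and at *Peg3* this rested on a gene of low count. *Airn* had 37 counts and 0, and *Zim1* had 42 and 0. At these levels, 54.9% and 52.4% of genes were at 0 in *tuft*, so that the pattern is not particular to imprinted loci there. Among all genes, 62.6% were lower at 30 to 100 counts in wild type, 32.9% at 300 to 1000 and 27.5% at 3000 or more. Whether the pattern at the other loci goes beyond this trend was not tested. At *Dlk1*-*Dio3* the direction depended on the genes. The share of *Meg3* rose from 48.8% to 60.2% against *Dlk1* and fell from 96.4% to 85.2% against *Rtl1*. Over all loci, the maternal share was 45.8% in wild type and 81.1% in *tuft*, but without *H19* it was 32.9% and 25.2%, in the opposite direction.

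**Figure D3:**
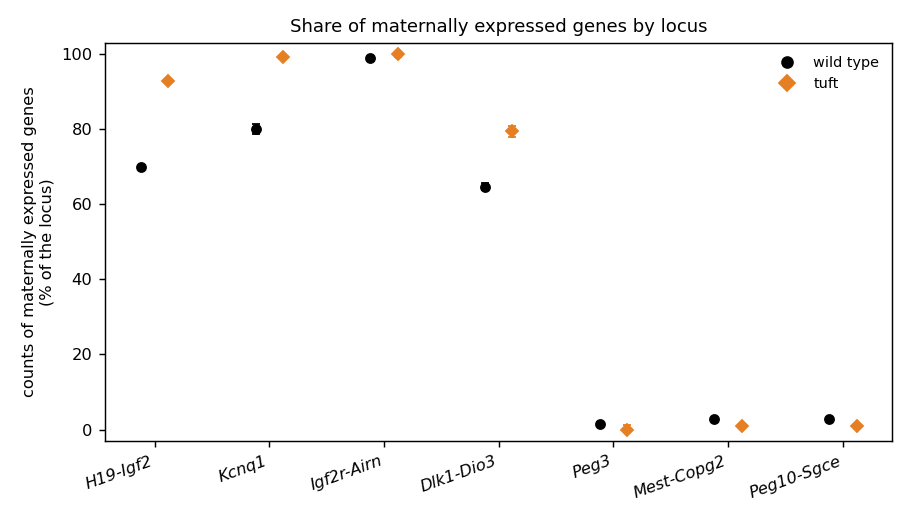
Percentage of the counts of each locus held by its maternally expressed genes in wild type (circles) and *tuft* (diamonds), with 95% Clopper-Pearson intervals. The share was higher in *tuft* at the 4 loci on the left, as from 69.8% to 92.7% at *H19*-*Igf2*, and lower at the 3 on the right.

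How a gene fared also went with its level. Of the 8 imprinted genes with 2 to 99 counts in wild type, 7 were at 0 in *tuft*. All 5 imprinted genes with 30 to 100 counts in wild type were at 0, as were 44.8% of all genes at that level. Of the 30 imprinted genes with at least 100 counts, 3.33% were at 0, beside 5.36% of all such genes.

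**Figure D4:**
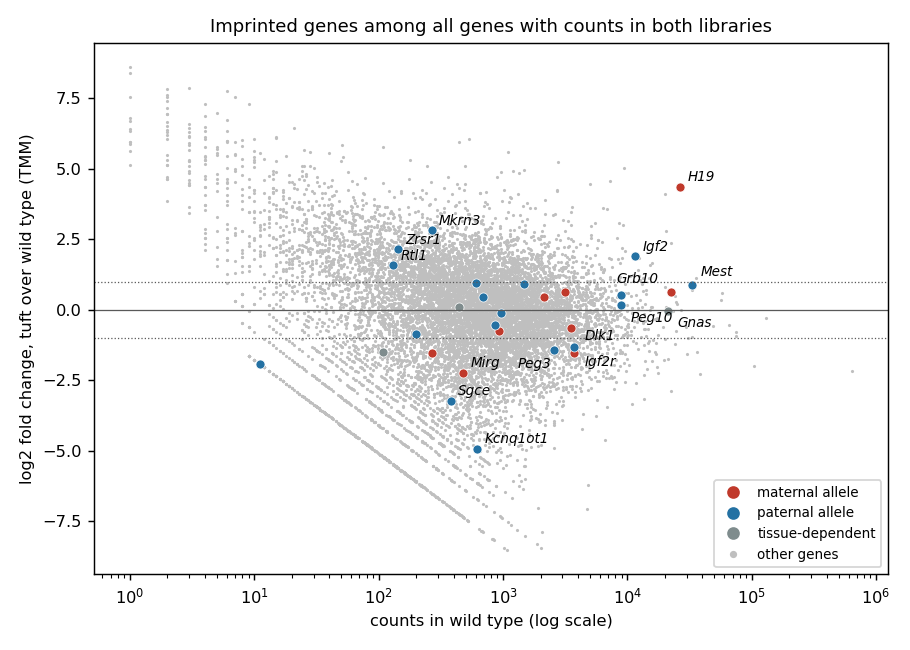
Log2 fold change (*tuft* over wild type, TMM) against counts in wild type on a log axis for all genes with at least 10 counts together and counts in both libraries (gray), with imprinted genes in color by expressed allele. Most imprinted genes lie within the gray cloud, whereas *H19*, at 26621 counts, lies above the genes of like level.

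The CpG content of promoters is shown because imprinted control regions often lie at gene starts. RefSeq promoter windows (250 bases before the start) were found for 32 of the 39 genes, with 48 starts. They held a median of 10 CpG sites, beside 6 over 32851 promoters of all genes. From 4 of the loci with genes of both alleles, 1 window each is printed 5′ to 3′ on the strand of the gene (GRCm38.p6), with CpG sites in capitals.
Kcnq1ot1, chr7:143296548-143296797, minus strand: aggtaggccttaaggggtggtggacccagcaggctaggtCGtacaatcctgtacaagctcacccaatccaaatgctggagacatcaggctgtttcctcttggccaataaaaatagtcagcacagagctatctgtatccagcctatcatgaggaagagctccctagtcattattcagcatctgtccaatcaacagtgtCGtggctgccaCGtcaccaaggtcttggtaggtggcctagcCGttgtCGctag
Igf2r, chr17:12769707-12769956, minus strand: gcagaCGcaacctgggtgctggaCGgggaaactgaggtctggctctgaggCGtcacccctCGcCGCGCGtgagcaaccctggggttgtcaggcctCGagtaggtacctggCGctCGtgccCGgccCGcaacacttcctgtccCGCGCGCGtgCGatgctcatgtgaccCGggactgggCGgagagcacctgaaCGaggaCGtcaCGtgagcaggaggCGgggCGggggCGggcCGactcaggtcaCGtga
Meg3, chr12:109540746-109540995, plus strand: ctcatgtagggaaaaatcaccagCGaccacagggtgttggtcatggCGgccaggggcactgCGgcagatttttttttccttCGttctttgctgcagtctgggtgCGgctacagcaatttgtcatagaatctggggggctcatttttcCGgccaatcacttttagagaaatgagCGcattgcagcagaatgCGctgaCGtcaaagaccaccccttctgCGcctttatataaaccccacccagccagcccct
Mest, chr6:30737800-30738049, plus strand: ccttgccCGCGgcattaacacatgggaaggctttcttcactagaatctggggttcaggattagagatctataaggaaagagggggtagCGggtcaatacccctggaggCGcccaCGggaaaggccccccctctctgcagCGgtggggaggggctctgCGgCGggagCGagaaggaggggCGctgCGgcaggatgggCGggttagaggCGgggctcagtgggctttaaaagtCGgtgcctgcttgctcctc
These windows held 5, 27, 10 and 14 CpG sites. They are promoter windows, and whether any of them holds a control region was not tested. The motif TGCCGC was searched on both strands because it is the core of the sequence that the imprint-protecting factor ZFP57 binds when methylated. It was found in 8 of the 48 windows (16.7%), beside 8.68% of all promoters. Windows of 1 gene can overlap, as at *Mest*, and by gene the motif was found in 7 (21.9%), beside 9.84% of all genes. It holds a CpG site, and promoters of like CpG content were not compared. It was found at *Meg3* and *Mest* and not in the windows of *Kcnq1ot1* and *Igf2r*. A match is a description of these letters and not of binding.

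Genes that set or read imprints were described from a list of 25 (DNA methyltransferases, TET enzymes, Polycomb and related factors). Of 23 with a fold change, 2 were higher (8.70%) and 10 lower (43.5%), with a median log2 value of -0.85, beside 21.2%, 37.3% and -0.46 over all genes. The lowest were *Eed*, a Polycomb subunit (872 counts in wild type and 20 in *tuft*, 0.067-fold), *Tet2* (129 and 0, at most 0.068-fold) and *Setdb1*, a histone H3K9 methyltransferase (2680 and 91, 0.099-fold). The highest were *Rbbp4*, a histone-binding protein (9197 and 25683, 8.13-fold), *Ctcf*, the insulator protein that binds between *H19* and *Igf2* (1913 and 2235, 3.40-fold), and the DNA methyltransferase *Dnmt3a* (1.81-fold). *Tet3* had a fold change of 1.46. Of all genes with 100 to 300 counts in wild type, as *Tet2* had, 15.9% were at 0 in *tuft*. The paper detected no significant difference in *Tet2* or *Tet3*, either by qPCR or in its own RNA-Seq calls. The paper's RNA-Seq calls came from the same pools as the counts here. The exact interval of *Tet2* reached up to a fold change of 0.084 and covers counting error only. Each genotype has 1 library, and the cause of the 0 was not tested.

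In 20 genes of IGF and insulin signaling, 6 were higher (30%) and 2 lower (10%), with a median log2 value of -0.02, beside the same values over all genes. The kinase *Akt2* (13.7-fold) and the growth factor *Igf1* (5.26-fold) were among the highest. *Igfbp3*, which binds IGFs (0.394-fold), *Igf2bp2*, which binds *Igf2* RNA (0.528-fold), and *Foxo1* (0.543-fold) had the lowest. Of 26 neighbors of the imprinted clusters, 7 were higher (26.9%) and 8 lower (30.8%), with a median of -0.11, from plasminogen (*Plg*), beside *Igf2r*, at 162 counts and 0, to *Cobl*, beside *Grb10*, at 9.25-fold.

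Other cell types in the dissected tissue differed between the libraries. Yolk sac endoderm and trophoblast, which also express imprinted genes, had lower markers in *tuft*. Of 11 yolk sac genes, 9 were lower (81.8%, beside 37.3% of all genes) and 1, *Amn*, was higher (2.01-fold). Their summed level was 2329 CPM in wild type and 292 in *tuft*. Of 8 trophoblast genes with a fold change, 6 were lower (75%), and the list summed to 38.5 CPM and 1.71. Several of these 8 had fewer than 30 counts in wild type. Of all genes with 10 to 30 counts there, 71.1% were at 0 in *tuft*. The genes of the trophoblast list with the most counts in wild type, *Prl3d1* (225) and *Hand1* (118), were at 0 in *tuft*. *Prl2c2* had 92 counts and 10. Of 8 blood genes, 3 were higher and 3 lower (37.5% each, beside 21.2% and 37.3% of all genes). Their summed level was 3212 CPM and 35529, nearly all of it globin, whereas *Klf1* and *Gata1* were at 0 in *tuft*. Endothelial markers summed to 379 and 129 CPM, those of heart muscle to 4.49 and 0.311, those of neurons to 104 and 111, those of head neuroepithelium to 922 and 1039, and those of head mesenchyme and crest to 378 and 644. Of 7 endothelial genes, 5 were lower (71.4%), but *Emcn* was 4.22-fold higher. Of 10 genes of mesenchyme and crest, 3 were higher (30%) and 0 lower. *Sox10* (11.1-fold) and *Twist1* (3.14-fold) were among the higher, whereas 3 of the 10 had fold changes below 1, as *Alx1* at 0.572. The sum for head neuroepithelium hid members that lay far apart: 3 were higher and 2 lower, among them *Rax*, a factor of the eye field, with 389 counts in wild type and 2 in *tuft*, *Six3* at 4.14-fold, *Sox1* at 3.16-fold and *En1*, a midbrain factor, with 2 counts and 70. The yolk sac and trophoblast lists were lower along with *Phlda2*, *Igf2r* and *Dlk1*, and the globin genes *Hbb-y* (32.4-fold) and *Hba-x* (17.1-fold) were higher along with *H19* and *Igf2*, whereas *Hbb-bh1* had a fold change of 1.08. Their part in those differences was not tested. In such bulk samples, fewer cells of a type and less RNA per cell cannot be told apart.

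**Figure D5:**
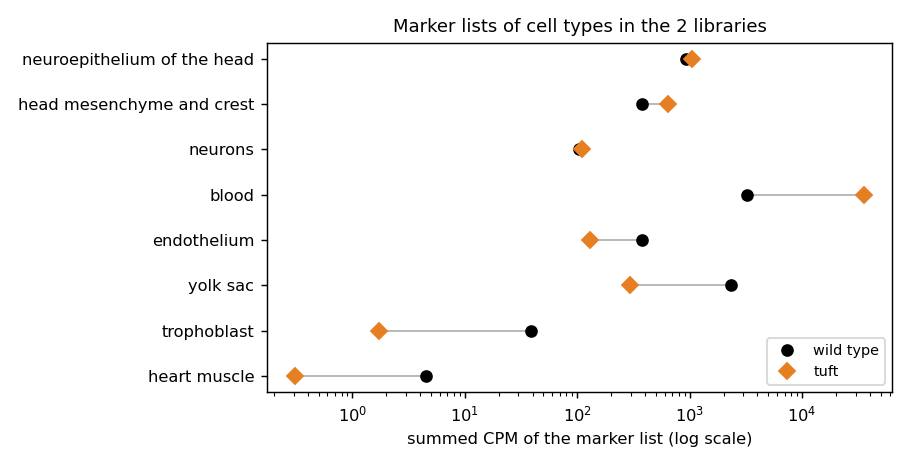
Summed level in CPM, on a log axis, of the marker genes of 8 cell types in wild type (circles) and *tuft* (diamonds). Yolk sac markers were at 2329 and 292 CPM and blood markers at 3212 and 35529 CPM. The sum for head neuroepithelium was 922 and 1039 CPM, with 3 of its 11 genes higher and 2 lower.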

How the data were processed

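RNA-Seq of 2 pools of E9 rostrums, wild type and *tuft*, was analyzed. The authors deposited raw counts per gene symbol: single-end Ion Proton reads of poly-A RNA were trimmed with PRINSEQ, aligned to mm10 with TopHat2 2.0.14 and counted with HTSeq. The strand setting, overlap mode and gene models are not given in the sources used here. The 5 summary lines were left out of the totals. Of all entries, 51.4% in wild type and 59.2% in *tuft* were not unique, and these were not counted on genes.

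With 1 library per genotype there are no residual degrees of freedom. NOISeq-sim, which draws its noise from the same libraries by simulation, was not used. Counts were scaled with TMM (edgeR 4.0.16, R 4.3.3). Exact intervals of the count ratio were computed with scipy 1.17.1 and checked on simulated data. A count of 0 was set to 3. Positions and promoters came from RefSeq (GRCm38.p6), and exon lengths and exon overlaps from GENCODE on NCBIM37. Every imprinted gene is named. Of the other lists, the 3 highest and 3 lowest with at least 100 counts are named, with the TET genes, except for 1 gene that is not reported here. Markers were named for their role, their counts or their fold change. The members and all lists were chosen with earlier results of these data known. Alternatives covered 6 normalizations, other thresholds and minima, a count of 0 set to 1, and the omission of overlapping genes.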

Additional observations from a re-analysis of the deposited data

How the results depend on the processing

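Under all 6 other normalizations, the 19 imprinted genes called higher or lower kept their call. Library totals alone added *Meg3*, *Copg2* and *Magel2* to the lower genes (17), with 45.7% of all genes lower, and moved the median log2 fold change to -1.53 for maternally and -0.50 for paternally expressed genes, while that of all genes moved from -0.46 to -0.85. DESeq2's size factors added *Plagl1* to the higher genes. A call at 1.5-fold gave 10 higher genes, and a call at 4-fold gave 3 higher and 9 lower. With at least 100 counts in both libraries together, 9 genes were lower, and the medians were -0.71 for maternally and 0.46 for paternally expressed genes, the latter with its sign turned, beside -0.14 for all genes. The 5 lower genes that this minimum removes, *Slc22a18*, *Airn*, *Dio3*, *Zim1* and *Usp29*, were at 0 in *tuft*. Without the 8 genes whose exons overlap another gene, the medians were -1.52 and -0.70. An interval wholly past 2-fold removed *Ddc* and *Asb4*. The number of loci whose maternal share rose or fell stayed within 1.5 times under its alternatives. No paired analysis was possible because each genotype has 1 column of counts. The intervals hold no variation between embryos, litters or library preparations. Values of genes below about 100 counts in wild type are limited by zeros. Of all genes with 30 to 100 counts there, 44.8% were at 0 in *tuft*, and the cause was not tested.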
